A study of Mus musculus with 48 samples.

Results

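The cell cycle genes were 46 genes that are transcribed mainly in dividing cells, taken from a list of S phase and G2/M phase genes, and all 46 were rows of the UMI matrix, which held 34586 genes. They comprised 15 genes of DNA replication (S), 27 genes of chromosome condensation and mitosis (G2/M), and 4 genes that many resting cells also express at some level (Hmgb2, Tubb5, Stmn1 and Cks1b). A cell was scored by the number of its unique molecular identifiers (UMIs) that fell on these genes. Levels are given as CPM, the UMIs of a gene per 1000000 UMIs of the same cells, and, for cells, as the share with 2 or more such UMIs. Each UMI counts 1 captured transcript end, and no correction for transcript length was made.

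Single cells of joint, lung, muscle, skin and spleen had been profiled by Seq-Well, a microwell method, in 4 healthy mice (H3, H4, H6 and H7) and 6 mice with collagen-induced arthritis (CIA; S1, S2, S3, S5, S6 and S8). All were male DBA1/J mice aged 8 to 12 weeks. The CIA mice received 100 µg of bovine collagen II in complete Freund's adjuvant and a booster in incomplete adjuvant on day 20. Healthy mice were injected with phosphate-buffered saline, so that disease, collagen and adjuvant cannot be told apart. There were 48 libraries, 10 per organ except joint, where 3 healthy and 5 CIA mice were analysed here. Organ pieces had been frozen and thawed. Joint, lung, muscle and skin were digested for 120 minutes with a collagenase chosen for the organ, and red cells were lysed in spleen and in muscle of H6, H7, S2, S3, S6 and S8. The sample titles carry the tag 2CIA for H3, S1, S2 and S3 and the tag CIA for the other mice. The arthritis score was 8 in S1, S2 and S3, 4 to 5 in S5, 3 to 4 in S6 and 2 to 3 in S8, so that tag and severity cannot be told apart among CIA mice. By the paper's methods, mice were killed at a set score or a set time after immunization, so time may differ with severity too. The comparisons asked which of the 13 cell type labels of the study held cell cycle RNA, and whether its amount differed between CIA and healthy mice or between organs.

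A cell that enters the cycle copies its DNA in S phase and separates the copies in mitosis. The MCM helicase (Mcm2 to Mcm7) opens the double helix, Pcna clamps the polymerase to it, and Tyms, Rrm1, Rrm2, Tk1 and Dut supply or guard the nucleotides. Cdk1 with its cyclins Ccna2, Ccnb1 and Ccnb2 then drives mitosis, Top2a untangles DNA, Smc4 condenses it, and Mki67 coats the mitotic chromosomes and is the usual marker of proliferation in tissue sections. Transcription of the S genes is classically driven by E2F factors, and that of the G2/M genes by complexes that bind the cell cycle homology region (CHR) together with CCAAT boxes. In blood formation most division takes place in precursors, such as erythroblasts and promyelocytes. The spleen of mice, unlike that of adult humans, is a regular site of red cell formation, whereas circulating red cells, neutrophils and most resting lymphocytes do not divide.

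These elements were looked for in the sequences before the start sites of the members. RefSeq windows of 250 bases upstream (GRCm38.p6) were at hand for 38 of the 46 members and for 27025 genes in all, and both strands were searched. An E2F sequence (TTTCCCGC, TTTCGCGC, TTTGCCGC or TTTGGCGC) stood in 5 of 13 S genes and 1 of 22 G2/M genes, against 2.16% of all genes. A CHR (TTTGAA or TTCGAA, the latter reading alike on both strands) stood in 9 of 22 G2/M genes and 2 of 13 S genes, against 19.6% of all genes. The CCAAT box occurred in 20 of 22 G2/M genes and 9 of 13 S genes, against 37.5%, and the CHR and CCAAT box together in 9 of 22 G2/M genes, against 7.0%. No sequence of one set contains one of another. Such matches are descriptions and not measured binding sites. To show both kinds, the windows follow of the S genes and the G2/M genes with most UMIs that held an E2F sequence (Mcm7, chr5:138171884-138172133, minus strand, and Hells, chr19:38930740-38930989, plus strand) or a CHR (Mki67, chr7:135716380-135716629, and Top2a, chr11:99024190-99024439, both minus strand), with the E2F sequence in capitals in the first pair and the CHR in capitals in the second pair, on either strand.
Mcm7: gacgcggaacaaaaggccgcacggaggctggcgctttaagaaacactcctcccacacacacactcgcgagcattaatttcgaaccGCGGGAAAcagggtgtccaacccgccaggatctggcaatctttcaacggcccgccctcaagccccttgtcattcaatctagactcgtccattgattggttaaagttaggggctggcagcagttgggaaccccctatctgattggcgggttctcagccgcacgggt
Hells: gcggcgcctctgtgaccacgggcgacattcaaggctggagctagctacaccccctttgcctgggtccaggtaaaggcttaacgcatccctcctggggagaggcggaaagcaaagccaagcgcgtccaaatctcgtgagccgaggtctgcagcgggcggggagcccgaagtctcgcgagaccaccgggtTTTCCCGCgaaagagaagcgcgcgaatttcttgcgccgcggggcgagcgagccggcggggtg
Mki67: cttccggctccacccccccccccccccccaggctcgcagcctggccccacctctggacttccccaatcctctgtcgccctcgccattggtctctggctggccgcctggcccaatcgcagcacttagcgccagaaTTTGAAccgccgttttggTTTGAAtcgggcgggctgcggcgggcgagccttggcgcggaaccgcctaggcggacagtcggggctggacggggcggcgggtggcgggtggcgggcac
Top2a: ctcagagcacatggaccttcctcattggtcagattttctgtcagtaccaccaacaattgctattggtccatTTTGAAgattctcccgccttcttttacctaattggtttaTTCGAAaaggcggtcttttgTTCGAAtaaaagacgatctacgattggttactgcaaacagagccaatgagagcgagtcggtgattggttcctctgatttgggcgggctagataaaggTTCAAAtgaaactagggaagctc

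The matrix held 13240 cells, of which 12096 had a cell type label. These had between 410 and 6239 UMIs, with a median of 675, and a library held between 17748 and 1645734 UMIs over its labelled cells. At this depth 34872 UMIs fell on the members, 3275 CPM, and 44.2% of them fell on the 4 broadly expressed genes. A cell carried few of them: 29.9% of cells had no member UMI, 50.5% had none of an S or G2/M gene, and 44.8% had 2 or more member UMIs. One pair of libraries stood apart, since muscle and spleen of S8 shared 36 cell barcodes, of their 285 and 324 cells, against at most 13 in any other pair. The muscle library of S8 held 150 of 185 muscle B cells and 17 of 31 muscle Erythrocytes. A further library, muscle of S6, held 1492 of all 1625 cells labelled Myocytes, and 7 skeletal muscle fibre genes such as Acta1 and Ckm, of which Myh4 was at 0, together reached 33.7 CPM in muscle Myocytes, so that this label is used here as a name only. Without the cells of shared barcodes the summed level of S8 was 2986 in place of 2945 CPM in muscle and 4230 in place of 4063 CPM in spleen.

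Cells labelled Erythrocytes carried by far the most cell cycle RNA. Their members summed to 15148 CPM over 297 cells, followed by T cells with 5095 CPM over 1788 cells, Dendritic cells with 4887 CPM over 441 cells, NK cells with 4342 CPM over 630 cells and Granulocytes with 4123 CPM over 1207 cells. The lowest labels were Fibroblasts with 1597 CPM and Endothelial cells with 1493 CPM. Labels had been assigned from the expression of the same cells, so these levels are descriptions and were not tested. The share of cells with 2 or more member UMIs was 97.3% in Erythrocytes, 67.1% in Dendritic cells, 58.7% in Granulocytes and 56.7% in T cells, and with every cell thinned to 400 UMIs it was 92.3%, 49.0%, 33.8% and 38.9%. Granulocytes thus stood above T cells before thinning and below them after it. The share was lowest in Macrophages before thinning (28.6%, and 14.0% after it) and in Fibroblasts after it (31.2% and 10.0%), and Endothelial cells had 32.4% and 11.6%.

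Organ and label together gave 28 groups of at least 50 cells. Erythrocytes of spleen had the highest level, 15647 CPM, with 97.7% of 261 cells at 2 or more member UMIs (exact 95% binomial interval 95.1 to 99.2, for counting error only). Over the 6 mice with at least 10 such cells the level was 15098 ± 1451 CPM (SD), from 13207 to 16679, and this range lay above every mouse of every other group of this size. T cells of spleen came next with 7894 CPM and mice between 5277 and 9401, then T cells of joint with 6498 CPM and mice between 890.5 and 9083, Granulocytes of spleen with 6227 CPM and mice between 5142 and 6555, and NK cells of spleen with 4849 CPM and mice between 2180 and 8279. The ranges of these 4 groups overlapped, so their order is not larger than the spread over mice. Macrophages of lung were near the bottom, with 1194 CPM, mice between 553.7 and 1647, and 16.4% of 677 cells at 2 or more member UMIs. They serve as the background for shares of cells, at a median depth of 583 UMIs per cell against 839 UMIs in spleen Erythrocytes. Muscle Endothelial cells, with 1079 CPM, were the lowest of the 28 groups.

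**Figure D1:**
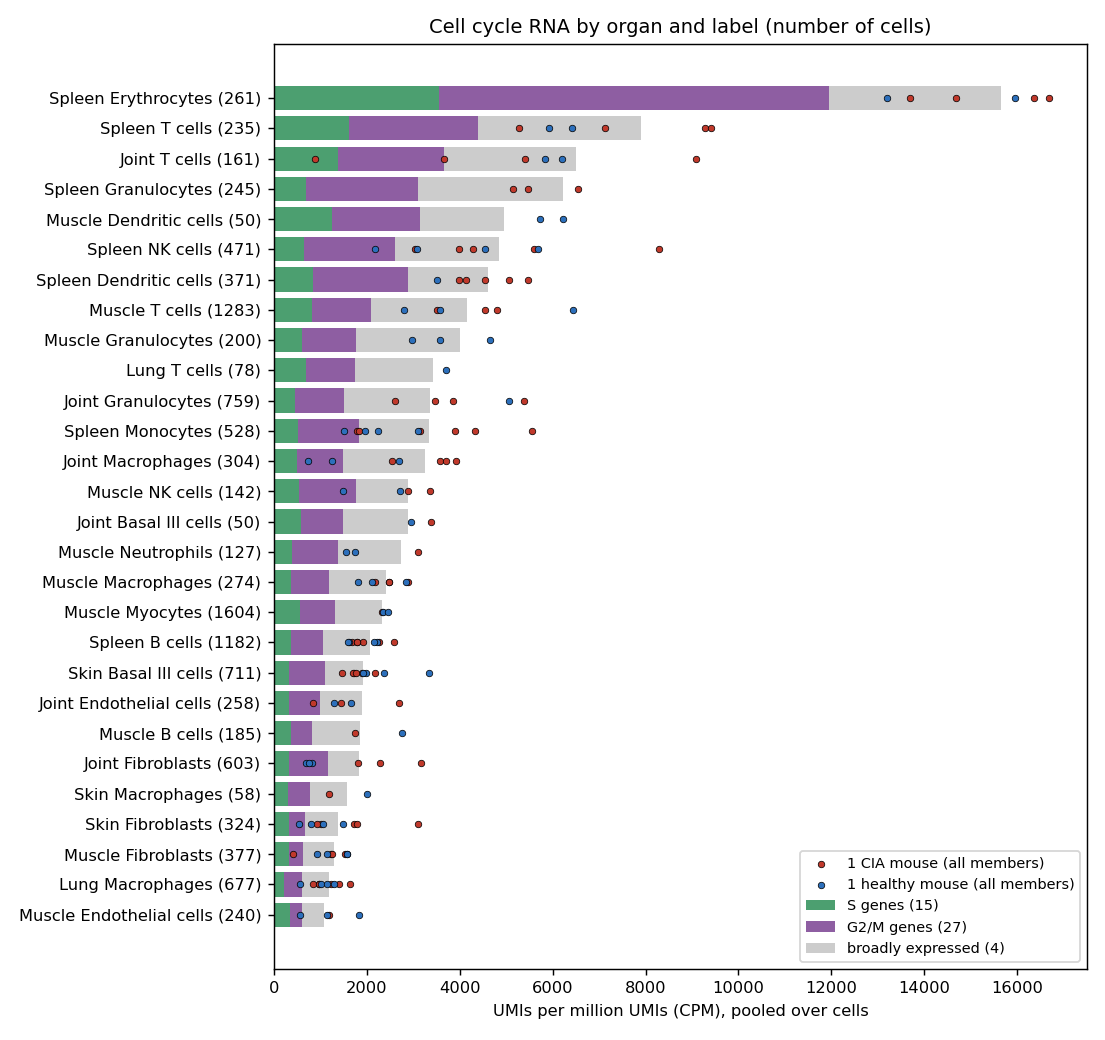
Summed level of the 46 cell cycle genes (CPM) in each group of organ and label with at least 50 cells, with a point for each mouse of at least 10 cells and stacked bars for the S, G2/M and broadly expressed members pooled over all cells. Spleen Erythrocytes, from 13207 to 16679 CPM over 6 mice, lie to the right of all other groups.

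The label was checked against its markers. In spleen Erythrocytes all 8 markers of the list, among them Alas2, Hba-a1 and Tfrc, were detected and summed to 64602 CPM. In the other spleen labels of at least 50 cells the same Erythrocytes list was between 4208 and 6554 CPM, except for 34342 CPM in Dendritic cells. The list holds genes of haem synthesis and the transferrin receptor beside globins, and the label does not separate nucleated precursors from mature red cells. The 3 members with most UMIs in spleen Erythrocytes were Hmgb2 with 2571 CPM, Mki67 with 2003 CPM and Smc4 with 1443 CPM, and Mki67 was found in 69.7% of these cells. In lung Macrophages Mki67 had 7 UMIs over 677 cells, or 15.4 CPM. By mouse, Mki67 was at 1938 CPM in S1, 1787 in S2, 3117 in S5 and 1632 in S8, and at 1148 in H3 and 2109 in H4, the mice with at least 10 cells. Top2a was at 1027, 971, 1019 and 933 CPM in the same CIA mice and at 431 and 1352 CPM in H3 and H4. Both genes were thus high in every mouse, and the CIA values fell between those of the 2 healthy mice except for Mki67 in S5. Muscle Erythrocytes, with 31 cells, were second of all groups when smaller ones are counted in, with 12291 CPM, and with 13170 CPM without the muscle library of S8.

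Erythrocytes made up 2.46% of labelled cells and 2.69% of their UMIs, but 12.4% of the member UMIs and 17.0% of those of the S and G2/M genes. Of the 46 members, 43 had their highest level in this label, among them 14 of 15 S genes, 26 of 27 G2/M genes and 3 of 4 broad genes. The exceptions were Cks2, a partner of Cdk1, with most in Granulocytes (246.7 CPM), Cks1b in T cells (78.8 CPM), and Gins2, a part of the replicative helicase, in Monocytes (27.6 CPM). The share of all genes highest in Erythrocytes is not given beside the 43. A few of the 43 rested on few UMIs there, such as Bub1b with 9 and Kif20a with 10. Among G2/M genes, Mki67 was at 1934 CPM in Erythrocytes and 289.8 CPM in Dendritic cells, the next label, a ratio of 6.67. Ccna2 and Cenpf, a kinetochore protein, showed ratios of 6.40 and 6.70 between the same labels. Among S genes, Mcm2 was at 181.8 CPM against 34.4 CPM in Dendritic cells, Rrm2 at 510.5 CPM against 126.2 CPM in Granulocytes, and Pcna at 552.5 CPM against 236.4 CPM in T cells. Among broad genes, Hmgb2, a chromatin protein, was at 2490 CPM against 1897 CPM in Granulocytes and Tubb5, a beta tubulin, at 902 CPM against 838 CPM in T cells. The ratio of the top label to the next was 1.72 for Stmn1 and 1.41 for Cks1b, and it was as low in a few S and G2/M genes, with 1.02 for Gins2, 1.15 for Cks2, 1.22 for Cenpa and 1.34 for Dut. Members varied widely in how often they were caught: Hmgb2 gave 9726 UMIs, Tubb5 4859, Smc4 3651, Pcna 1574, Mki67 1391 and Top2a 1256, whereas Plk1, the mitotic kinase, gave 54 and Bub1b, a checkpoint kinase, gave 46, with a median of 297.

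Most members followed the sum of the other members over the 28 groups. Abundant genes weigh most in that sum, since Hmgb2, Tubb5 and Smc4 gave 27.9%, 13.9% and 10.5% of all member UMIs. The correlation of a member with the sum of the other members, on log2(CPM + 10), was 0.92 for Mki67 and 0.91 for Top2a, Birc5 and Cdca8, the latter both subunits of the chromosomal passenger complex. It was 0.54 for Pcna, 0.52 for Cks1b, 0.42 for Ckap2 and 0.34 for Gins2. Without the Erythrocytes it was 0.89 for Mki67 and 0.32 for Pcna. These points share libraries and depth, and they are given with no test. Outside the 46, the genes most like them by the same measure among 6638 genes were Smc2 (0.90), which joins Smc4 in condensin, the histone genes Hist1h2an and Hist1h2bm (both 0.88), and Kif15 and Pclaf (both 0.87), followed by Hist1h2ae, Hist1h1b, Cenph, Knl1 and Hist1h2bj.

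**Figure D2:**
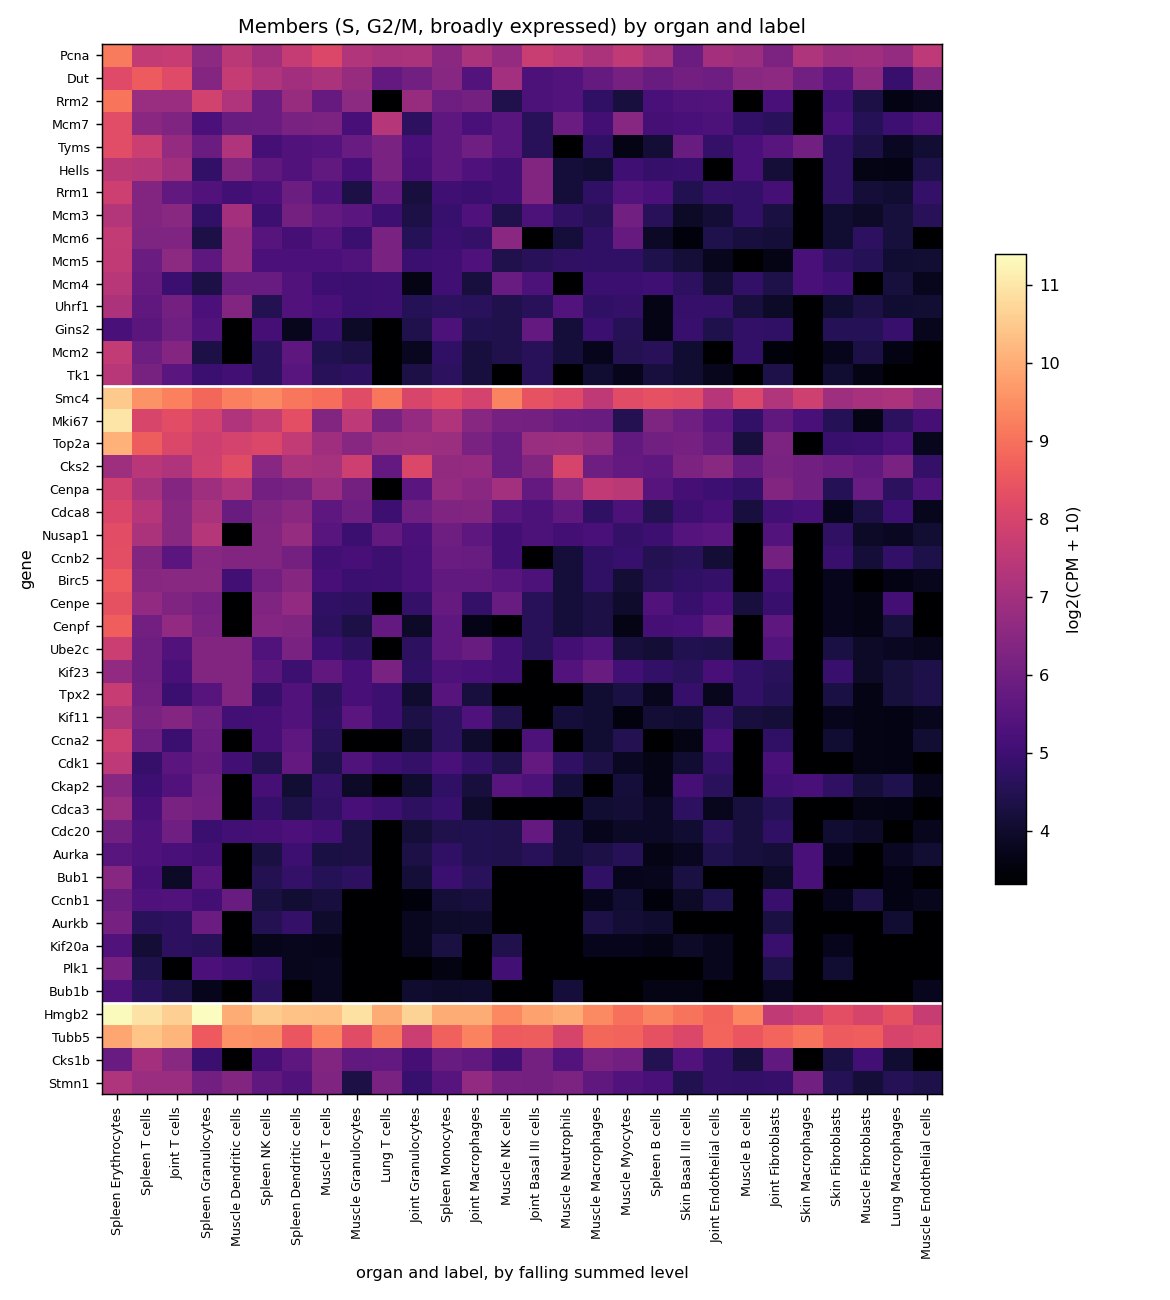
Level of each of the 46 members in each group of organ and label with at least 50 cells, as log2(CPM + 10), with members split by white lines into S, G2/M and broadly expressed genes and groups ordered by summed level. The column of spleen Erythrocytes is high for nearly all members, whereas Hmgb2 and Tubb5 are seen in all groups.

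The share of S genes among the S and G2/M UMIs differed between groups. S genes made up 29.7% of the S and G2/M UMIs of spleen Erythrocytes (exact 95% interval 28.1 to 31.4), 22.0% in spleen Granulocytes (19.3 to 24.9) and 24.9% in spleen NK cells (22.0 to 27.9). Groups labelled T cells held more, with 36.6% in spleen, 37.7% in joint and 38.8% in muscle. Groups with little cell cycle RNA differed among themselves, with 28.2% in joint Fibroblasts, 29.8% in skin Basal III cells, 35.4% (29.7 to 41.4) in lung Macrophages, 48.5% in skin Fibroblasts, 50.0% in muscle Fibroblasts and 57.8% (49.9 to 65.4) in muscle Endothelial cells. Pcna, which also serves DNA repair, was among the 3 members with most UMIs in muscle Endothelial cells, with 170.2 CPM. Smc4 alone gave 3651 of the 13015 G2/M UMIs and was found in 18.3% of labelled cells. It gave 366 of 2131 G2/M UMIs in spleen Erythrocytes, 220 of 575 in skin Basal III cells and 48 of 120 in muscle Fibroblasts. The part of this gene in the shares was not tested. The intervals cover counting error only, the spread over mice is not given, and these shares were not tested.

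Cells with 5 or more UMIs of S and G2/M genes were counted as rich cells. There were 1021, or 8.44% of labelled cells, and they showed a median of 6 distinct S and G2/M genes, with a range of 1 to 28. Their median depth was 1265 UMIs, against 650 in the other cells, and the part of depth in the count was not tested. Erythrocytes gave 239 rich cells (80.5% of the label), T cells 230 (12.9%), Granulocytes 155 (12.8%), Dendritic cells 68 (15.4%), Monocytes 62 (10.5%) and NK cells 49 (7.78%). B cells gave 14 (1.02%) and Neutrophils 7 (4.12%), all from 1 mouse. In rich cells G2/M UMIs exceeded S UMIs in 784 cells and the reverse held in 189 cells.

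Markers of other cells stood high in several of these rich cells. In joint T cells, the 51 rich cells held granulocyte precursors genes (Elane, Mpo, Prtn3, Ctsg and Ms4a3, which encode or accompany the enzymes of promyelocyte granules) at 6156 CPM, against 1122 CPM in the other 110 cells. The 4 T cells markers were at 62.6 CPM in the rich cells, with Bcl11b at 0, and at 170.9 CPM in the others. In spleen T cells the same precursor list was at 1938 and 1136 CPM and the T cells markers at 89.7 and 82.3 CPM. In muscle T cells, granulocyte precursors were at 423.5 against 126.9 CPM and T cells markers at 190.0 against 258.7 CPM. In joint and spleen T cells the precursor list thus exceeded the T cells markers in rich and in other cells. The label T cells is used there as a name only.

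Dendritic cells of spleen, too, held marker lists of other labels above their own, and the label is used there as a name only. The level of the Dendritic cells list in the other spleen labels is not given here. In spleen Dendritic cells the label's own 5 markers (Cebpa, Nfe2, Ifit1, Cd7 and Siglech) summed to 183.1 CPM. The Granulocytes markers (Camp, Ngp, S100a8 and S100a9) stood at 122468 CPM and the Erythrocytes markers at 34342 CPM. In the 47 rich cells of this group the granulocyte precursors list was at 7057 CPM, against 862.8 CPM in the other 324. Granulocytes of spleen kept their own markers at 430497 and 433177 CPM in rich and other cells, with granulocyte precursors at 1795 and 379.5 CPM. In joint Macrophages granulocyte precursors were at 1424 against 107.0 CPM and the Macrophages markers at 19422 against 27095 CPM.

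Spleen NK cells, skin Basal III cells and spleen Monocytes had their own markers higher in rich cells than in the others. The NK cells markers (Klrk1, Il18rap and Gzma) in spleen NK cells were at 2149 CPM in the 45 rich cells and at 704.3 CPM in the other 426, with granulocyte precursors at 67.9 and 36.1 CPM. Skin Basal III cells, the keratinocyte label, held their markers (Krt14 and Krt5 among them) at 6204 CPM in 46 rich cells and at 3639 CPM in the other 665. In spleen Monocytes the Monocytes markers were at 1387 and 1081 CPM and the Erythrocytes markers at 10911 and 5795 CPM. There the Erythrocytes list thus exceeded the label's own markers in rich and in other cells. The part of a second cell under the same barcode, or of a wrong label, in these values was not tested.

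**Figure D3:**
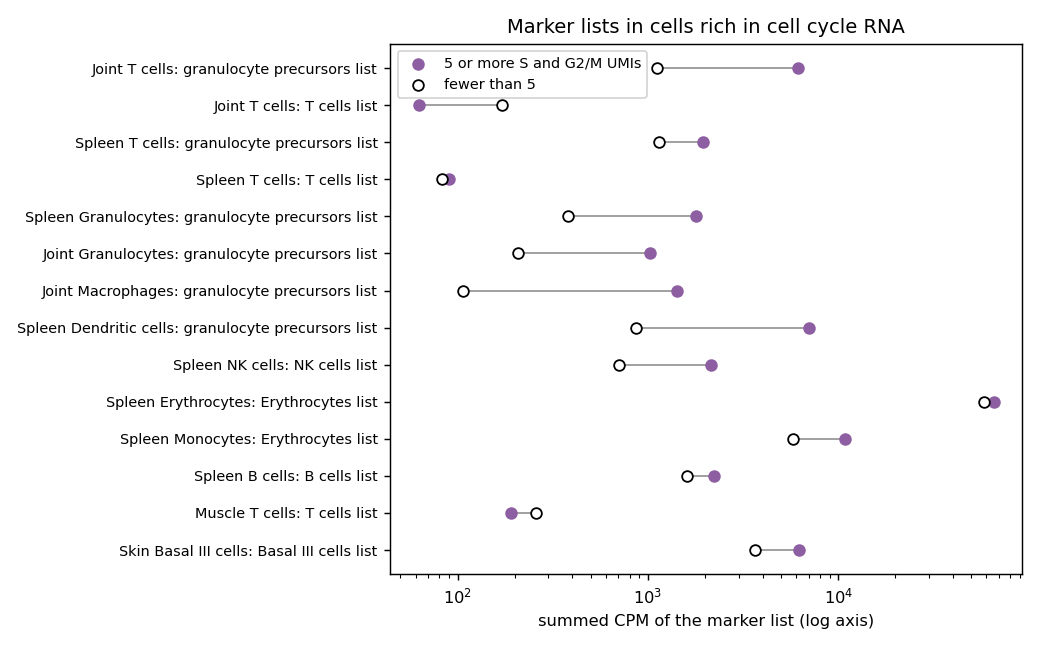
Summed level (CPM, log axis) of marker lists, each named beside the group (the label's own, granulocyte precursors or, in spleen Monocytes, Erythrocytes), in cells with 5 or more S and G2/M UMIs and in the other cells of the same group. Granulocyte precursors stand at 6156 against 1122 CPM in joint T cells, and the NK cells markers at 2149 against 704.3 CPM in spleen NK cells.

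CIA and healthy mice were compared on UMIs summed per mouse in the 11 pairs of label and organ with at least 3 mice of each group and 10 cells per mouse, with edgeR's quasi-likelihood test and Benjamini-Hochberg adjustment over all genes tested. Few members could be tested: between 0 and 8 per comparison passed the filter on low counts, 28 tests in all over 8 of the 46 members, and 38 members were never tested. In bulk sums of a label, fewer dividing cells and less RNA per dividing cell cannot be told apart. A single call was made among the 28 member tests, while 1.34% of the 8258 tests of all genes were called. That call was Hmgb2 in joint Macrophages.

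Hmgb2 in joint Macrophages was at 1471 CPM in S1, 938 in S3, 1070 in S5 and 1066 in S8, and at 508 in H3, 252 in H4 and 56 in H7. All CIA mice lay above all healthy mice, on 1 to 141 UMIs per mouse. The log2 fold change was 1.78 ± 0.48 (SE, 3 healthy and 4 CIA mice, adjusted p = 0.048), and 10.3% of the 273 genes tested in this comparison were called. DESeq2 also called it (log2 fold change 1.79, adjusted p = 0.022), as it did 10.6% of the genes. The edgeR call was lost, at a like fold change, with RLE factors (1.74, adjusted p = 0.059), plain library size (1.69, adjusted p = 0.062) and the tag of the sample title as a term (1.86, adjusted p = 0.058). It was kept without H3 and lost without any other of the 7 mice (log2 fold change 1.32 to 3.03, adjusted p 0.020 to 0.13). Tubb5, the other member tested there (log2 fold change 0.57 ± 0.44, adjusted p = 0.57), was at 725, 827, 600 and 627 CPM in the CIA mice and at 629, 420 and 169 CPM in the healthy mice, which overlapped. Granulocytes markers in the same cells ranged from 33192 to 59263 CPM in CIA mice and from 924 to 8229 CPM in healthy mice, and granulocyte precursors from 62.7 to 524 CPM against 0 in all 3 healthy mice. Their part in the call was not tested.

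**Figure D4:**
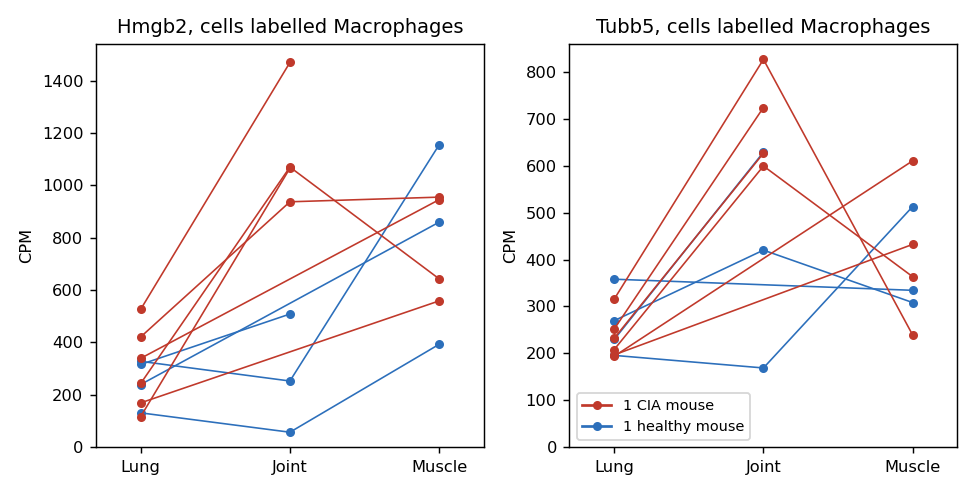
Level of Hmgb2 and Tubb5 (CPM) in cells labelled Macrophages of joint, lung and muscle, with a point for each mouse of at least 10 cells, lines joining the organs of 1 mouse, and healthy and CIA mice in different colours. In joint the 4 CIA mice have Hmgb2 between 938 and 1471 CPM and the 3 healthy mice between 56 and 508 CPM, and in lung the groups overlap.

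Fibroblasts of joint showed the clearest separation of the summed level. It was 1804 CPM in S1, 3176 in S3 and 2273 in S5, against 823.0 in H3, 696.7 in H4 and 750.5 in H7. No CIA mouse overlapped a healthy mouse at 10 or more cells, but S6, with 9 cells, was at 417.7 CPM and S8, with 4 cells, at 829.5 CPM. Rich cells numbered 8, 9 and 11 in the 3 CIA mice and 0 in each healthy mouse. These counts are not scaled to the cells or UMIs of a mouse. Over all 603 joint Fibroblasts the rich cells had a median of 2271 UMIs, against 928 in the others, and the part of depth was not tested. A score over chosen genes was not tested. Tubb5 (log2 fold change 0.76 ± 0.35, adjusted p = 0.29) and Hmgb2 (0.96 ± 0.55, adjusted p = 0.41) were the members that passed the filter, and neither was called by edgeR or DESeq2, while edgeR called 1.68% of 1014 genes. In the fit of every gene with a UMI, 44 of 46 members had a log2 fold change above 0, against 64.4% of all genes, and 24 had an unadjusted p under 0.05, all higher in CIA, against 7.0% of all genes, and 1 was called, against 0.52%. That was Cenpa, the centromeric histone, with 55 UMIs in the CIA mice (15, 12 and 28) and 0 in the healthy mice, at least 5.40-fold higher against a floor of 3 UMIs over the healthy group (adjusted p = 0.0028). Of the members, 27 had no UMI in the healthy mice, whose 166413 UMIs allow up to 18.0 CPM per gene, against 565258 UMIs in the CIA mice. With those members at their bound the median log2 fold change was 0.62, against 0.05 over all genes. In a further count on UMIs pooled over mice, counts under 3 were set to 3, and genes at or under 3 in both groups were left out. By that count 29 of 42 members were above 0, against 35.7% of all genes. Mki67 gave 30 UMIs in the CIA mice and 1 in the healthy mice, Top2a 46 and 3, Cdk1 20 and 0, Pcna 38 and 11, and Mcm5 2 and 0. Granulocytes markers in these Fibroblasts ranged from 13231 to 29491 CPM in the CIA mice and from 1393 to 5900 CPM in the healthy mice, with Fibroblasts markers from 19204 to 56564 and from 25516 to 41851 CPM. Their part in the difference was not tested.

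In the other 9 comparisons, of which muscle and skin Fibroblasts tested no member, no member was called by edgeR or by DESeq2, and none of the members tested had an unadjusted p under 0.05 in edgeR, as 7.16% of all genes had. The share of all genes that edgeR called was 6.51% in lung Macrophages, 6.36% in spleen Monocytes, 0.183% in muscle Macrophages, 0.0511% in muscle T cells and 0.0% in the others. Spleen Monocytes overlapped, with 5547 CPM in S1, 4322 in S2, 3145 in S3, 1795 in S5, 1824 in S6 and 3902 in S8 against 1958 in H3, 2238 in H4, 3098 in H6 and 1510 in H7. Spleen NK cells with at least 10 cells ranged from 3034 to 8279 CPM in CIA and from 2180 to 5678 CPM in healthy mice, and spleen B cells from 1675 to 2595 CPM and from 1603 to 2209 CPM. Skin Basal III cells ranged from 1470 to 2174 CPM in CIA and from 1917 to 3331 CPM in healthy mice. Over the 11 comparisons without the filter, Mki67 had log2 fold changes from -0.47 to 3.48, Top2a from -0.92 to 2.65, Pcna from -0.50 to 1.70 and Mcm5 from -1.68 to 3.93, and Cdk1, fitted in 10, from 0.50 to 5.17. None of these passed the threshold (lowest adjusted p 0.27, for Mki67), while 0.172% of all gene tests did. Erythrocytes and T cells of spleen could be compared only at 5 or more cells per mouse, where 5 members each were tested and edgeR called 0, with 0 at an unadjusted p under 0.05, while it called 0.0% and 0.789% of the genes. In the fit of every gene with a UMI, 3 members in Erythrocytes and 10 in T cells had an unadjusted p under 0.05, against 3.01% and 5.04% of all genes, all higher in CIA. None was called, against 0.00766% and 0.15% of all genes.

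All labelled cells of an organ were then summed per mouse, a measure that also moves with the mix of cell types. None of the 44 member tests over 20 members was called by edgeR or by DESeq2, 5 had an unadjusted p under 0.05, against 7.23% of all gene tests, and 0.365% of the 11791 gene tests were called. In spleen the summed level was 6461 CPM in S1, 6979 in S2, 5124 in S3, 3705 in S5, 3579 in S6 and 4063 in S8, against 4192 in H3, 3923 in H4, 2371 in H6 and 3067 in H7. The groups overlapped. Among the mice tagged 2CIA, S1, S2 and S3 all lay above H3, the only healthy one, and among those tagged CIA the 3 CIA mice ranged from 3579 to 4063 CPM and the 3 healthy mice from 2371 to 3923 CPM. The CIA mice tagged 2CIA are also those with the arthritis score of 8.

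Birc5 (survivin), which guides the separation of chromosomes, was at 152.3 CPM in S1, 113.7 in S2, 37.2 in S3, 31.9 in S5, 89.7 in S6 and 49.6 in S8, and at 18.0 in H3, 36.5 in H4, 21.0 in H6 and 6.85 in H7. The groups overlapped only through S5, which lay below H4. It was the only member called in the fit of every gene with a UMI (log2 fold change 2.00 ± 0.51, adjusted p = 0.016, 0.747% of 23012 genes called), and the fit with the filter did not test it. Mki67 was at 478.0, 431.4, 74.4, 294.5, 418.4 and 253.0 CPM in the CIA mice and at 179.5, 294.3, 104.9 and 102.7 CPM in the healthy mice (log2 fold change 0.91 ± 0.50, adjusted p = 0.83). Top2a gave 0.78 ± 0.38 (adjusted p = 0.79) and Pcna 0.20 ± 0.34 (adjusted p = 0.99). Mcm5 (1.02 ± 0.58, adjusted p = 0.70) and Cdk1 (1.51 ± 0.65, adjusted p = 0.65) were read from the fit of every gene. Dut (0.96 ± 0.35, adjusted p = 0.56) and Ccnb2 (1.35 ± 0.61, adjusted p = 0.73) were the members with an unadjusted p under 0.05 after the filter. In the fit of every gene, 44 of 46 members had a log2 fold change above 0, against 59.4% of all genes, and 23 had an unadjusted p under 0.05, against 6.3%. Their median log2 fold change was 1.00, against 0.21 over all genes, and all 46 had a UMI in both groups.

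The make-up of spleen also differed between the groups, with overlap over mice in both marker lists below. Granulocytes markers ranged from 19666 to 130943 CPM in CIA mice and from 3389 to 22237 CPM in healthy mice, and Erythrocytes markers from 2464 to 23303 CPM and from 241 to 7763 CPM. The shares that follow are pooled over the cells of all mice of a group, so large libraries weigh most, and shares by mouse are not given. B cells, a label low in cell cycle RNA, were 28.6% of labelled cells in CIA and 51.6% in healthy mice, and Erythrocytes 9.08% and 5.06%. Erythrocytes held 27.97% of the member UMIs of spleen in CIA and 28.61% in healthy mice. The part of the mix in the summed level was not tested.

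In joint the summed level was 2677 CPM in S1, 3367 in S3, 3443 in S5, 875.9 in S6 and 4321 in S8, against 2494 in H3, 1896 in H4 and 806.3 in H7, so that S6 lay among the healthy mice. Hmgb2 (log2 fold change 1.20 ± 0.56, adjusted p = 0.46) and Cks2 (1.20 ± 0.54, adjusted p = 0.46) had an unadjusted p under 0.05, and Mki67 was at 1.11 ± 0.81 (adjusted p = 0.62). Top2a was at 0.97 ± 0.74 (adjusted p = 0.64) and Pcna at -0.07 ± 0.59 (adjusted p = 0.97). In the fit of every gene 45 of 46 members were above 0, against 60.0% of all genes, and 11 had an unadjusted p under 0.05, against 6.23%. The 5 members with no UMI in healthy joint were set to their bound for a median log2 fold change of 1.00, against -0.12 over all genes. Pooled over mice with counts under 3 UMIs set to 3, 41 of 46 members were above 0, against 29.8% of all genes. Kif23, a kinesin of the dividing midzone, was the only member whose CIA mice (15.9 to 26.0 CPM) all lay above the healthy mice (0 to 14.3 CPM), on 1 to 26 UMIs in each CIA mouse, against 0.91% of 24079 genes. No member did so in spleen, lung, muscle or skin, against 0.443%, 0.402%, 0.282% and 0.266% of genes. Pooled over mice, Granulocytes, with 723 of the CIA cells and 36 of the healthy cells, were 39.6% and 8.91% of labelled joint cells.

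In muscle, skin and lung the groups overlapped throughout. The summed level ranged from 1041 to 4346 CPM in CIA and from 2381 to 3282 CPM in healthy muscle, from 1497 to 2275 and from 1587 to 2278 CPM in skin, and from 1030 to 2099 and from 613.4 to 1655 CPM in lung. Cks2 in muscle, lower in CIA, had an unadjusted p under 0.05 (log2 fold change -0.87 ± 0.35, adjusted p = 1.00). Of members measured without the filter, 23 of 46 in muscle, 23 of 45 in skin and 23 of 43 in lung were above 0, against 62.2%, 56.3% and 46.8% of all genes.

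**Figure D5:**
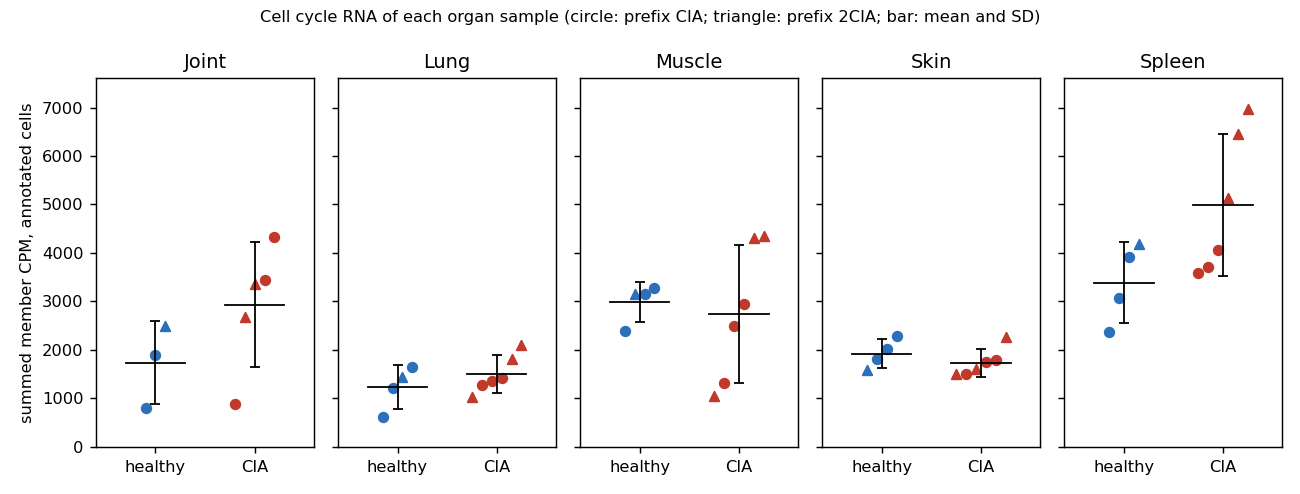
Summed level of the 46 members (CPM) over all labelled cells of an organ, with 1 point per mouse, healthy and CIA mice apart, the tag of the sample title given by the point's shape, and bars for the mean and SD. In spleen the CIA mice range from 3579 to 6979 CPM and the healthy mice from 2371 to 4192 CPM, and the groups overlap in all 5 organs.

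Cells of 1 label were also compared between organs of the same mice, with the mouse as a block, in 11 pairs of organs. Of 44 member tests 3 were called, against 6.2% of all 9552 gene tests, and all 3 were of the broad genes Hmgb2 and Tubb5 in Macrophages. Hmgb2 was higher in muscle than in lung Macrophages, with a log2 fold change of 1.39 ± 0.25 over 7 mice (adjusted p = 0.00097, 21.8% of 921 genes called), and the call was kept without each mouse in turn. Lung Macrophages lay below joint Macrophages in Hmgb2 (-1.15 ± 0.37, adjusted p = 0.049) and Tubb5 (-1.13 ± 0.32, adjusted p = 0.028), where 13.1% of 810 genes were called. The call of Hmgb2 was lost in DESeq2 (-1.10, adjusted p = 0.080) and without the block (-1.08, adjusted p = 0.060), and that of Tubb5 was kept in both. Both calls were lost without H3 (adjusted p = 0.074 and 0.075), S1 (0.19 and 0.10), S3 (0.092 and 0.074) or S8 (0.12 and 0.052), and that of Hmgb2 also without S5 (0.12). Hmgb2 in lung Macrophages was at 526.2 CPM in S1, 339 in S2, 421 in S3, 243 in S5, 169 in S6 and 116 in S8, and at 315 in H3, 327 in H4, 239 in H6 and 130 in H7. In muscle Macrophages Hmgb2 was at 946 CPM in S2, 955 in S3, 643 in S5, 559 in S6, 1156 in H4, 860 in H6 and 393 in H7, above lung in each of these 7 mice. Granulocytes markers in Macrophages ranged from 356 to 14700 CPM in lung, from 394 to 39553 CPM in muscle and from 924 to 59263 CPM in joint, and their part in the calls was not tested. The organs had been digested with different enzymes, so organ and digestion cannot be told apart.

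No S or G2/M gene was called between organs by edgeR. Cenpa was at 433.5, 318.5, 223.6 and 144.1 CPM in muscle Macrophages of S2, S3, S5 and S6, at 0, 47.8 and 60.4 CPM in those of H4, H6 and H7, and at 0 to 69.3 CPM in lung Macrophages of all mice (log2 fold change 2.38 ± 0.93, adjusted p = 0.079 in edgeR, and 2.42 with adjusted p = 0.040 in DESeq2, which called 17.8% of genes). T cells of spleen against muscle, in 3 mice, gave Top2a at 1.70 ± 0.45 (adjusted p = 0.20), Dut at 1.49 ± 0.49 (adjusted p = 0.25) and Smc4 at 0.98 ± 0.44 (adjusted p = 0.39), and edgeR called 0.0% of genes. DESeq2, which called 0.391%, called Top2a (log2 fold change 1.77, adjusted p = 0.040). Cells labelled T cells differed between spleen and muscle in granulocyte precursors and in T cells markers, as given above. The part of this in the values was not tested. Over the 11 pairs without the filter, Mki67 ranged from -4.84 to 1.81, Top2a from -4.56 to 2.85, Pcna from -0.78 to 1.01 and Mcm5 from -2.41 to 1.596. Cdk1, fitted in 10, ranged from -4.42 to 1.66. None of these was called, while 0.297% of all gene tests were called.

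Of 31 genes that start or stop the cycle and are not members, 17 had their highest level in Erythrocytes, among them Ccne2 (374.2 CPM), the cyclin of S phase entry, Gmnn (335.7 CPM), which limits replication to once per cycle, and Ccnd3 (276.2 CPM). Some of the 17 rested on few UMIs in that label, with 5 for Mybl2, 9 for E2f7 and 11 for Chek1. The share of all genes highest in Erythrocytes is not given here. The antiproliferative Btg1 was at 822.8 CPM in Macrophages and 206.3 CPM in Erythrocytes, and the inhibitor Cdkn1a at 800.1 CPM in Endothelial cells and 38.5 CPM in Erythrocytes. Cdkn1c, another inhibitor, had 0 UMIs in Erythrocytes and 138.9 CPM in Endothelial cells. None of those tested was called by edgeR between CIA and healthy mice, label by label or by organ (lowest adjusted p 0.33). Of all gene tests, 1.34% label by label and 0.365% by organ were called. Between organs, 6.2% of all 9552 gene tests were called. Btg1 was called higher in skin than in joint Fibroblasts (log2 fold change 1.23 ± 0.37, adjusted p = 0.040). It was also called higher in lung than in joint Macrophages (1.03 ± 0.34, adjusted p = 0.049), where 13.1% of 810 genes were called.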

How the data were processed

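The authors aligned Seq-Well reads with STAR 2.5.3 and Drop-seq tools 1.12 (with bcl2fastq 2.19.1 and Picard 2.9.0) and deposited 1 matrix of UMI counts, with no normalization, and a label per cell. Their methods name GRCm38 and the submitters' processing notes name GRCh38 and mm9, and no coordinate of a read was used here. The authors assigned labels from denoised expression, a mouse reference and marker genes. Counts of labelled cells were summed per mouse, organ and label, and CPM was computed over all genes. Genes that passed filterByExpr were tested with edgeR 4.0.16 (quasi-likelihood test, TMM factors, R 4.3.3) and Benjamini-Hochberg adjustment over all genes tested, at a threshold of 0.05. DESeq2 1.42.0, other scaling, no filter, title tags, cell minimums and leaving out mice were alternatives. The code was tested on simulated data. Replicates were separate mice, and mice with fewer than 10 cells of a label were left out. The authors' methods left out cells above 6000 transcripts as possible duplicates, 3 labelled cells exceeded that number here, and no doublet caller was run. Totals ranged from 17748 to 1645734 UMIs per library, and intervals cover counting error only. Log2 fold changes are given with standard errors, CIA over healthy or first over second organ.

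The members and gene lists were chosen with earlier results of these data known. All 46 members could be named. Mki67, Top2a, Pcna, Mcm5 and Cdk1 were given for each kind of comparison, together with the members past the threshold (at most 10), the 3 members with most UMIs in a described label, and the 10 other genes most like the members among those with at least 200 UMIs. Birc5, Cenpa and Kif23, and the members named at an unadjusted p under 0.05, were singled out after their values were seen. Muscle fibre, B cell receptor, plasma cell, blood progenitor and plasmacytoid dendritic cell lists were computed beside those printed. Promoter windows came from RefSeq (GRCm38.p6), and all 46 members matched GENCODE vM21.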

Additional observations from a re-analysis of the deposited data

Results flagged for a closer look

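In muscle, the healthy mouse H4 had a summed member level of 2381 CPM, on 378 UMIs of 168 cells, whereas the other 3 healthy mice lay between 3145 and 3282 CPM, so that its gap made up 0.848 of the range of the 4 mice. Of 30 groups of mice checked this way 1 stood out, and chance alone gives about 1 in 20.

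Cells without a label, which entered no comparison, also carried cell cycle RNA. In CIA mice they had 3131 CPM, on 1426 member UMIs of 767 cells, and in healthy mice 2106 CPM. The mice ranged from 2540 to 3520 CPM in CIA and from 1633 to 2505 CPM in healthy mice, which did not overlap. This difference was not tested. It pools the organs of a mouse, and H6 and S2 had no joint library. By organ, cells without a label ranged from 1196 CPM in lung to 3765 CPM in spleen. The part of the organ mix in the difference was not tested. Over all mice, cells without a label had 2770 CPM, and 2301 CPM without cells of over 6000 UMIs, which the authors' methods left out. In joint the 2 values were 3415 and 1624 CPM. The part of such cells in the difference between CIA and healthy mice was not tested.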

How the results depend on the processing

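Label by label, the single call between CIA and healthy mice (Hmgb2 in joint Macrophages) became 0 calls with RLE factors, with plain library size, with the title tag as a term and among the mice tagged CIA alone, and leaving out 1 mouse gave 0 to 1 calls. Without the filter on low counts there was again 1 call, but of Cenpa in joint Fibroblasts. By organ, no filter gave 1 call in place of 0 (Birc5 in spleen), and leaving out 1 mouse gave 0. Between organs, no filter gave 0 calls in place of 3, leaving out 1 mouse gave 1 to 4, and the fit with no replicate block on the mouse gave 2. A replicate block on the mouse number gave 0 calls in the 4 label comparisons and 4 organs where it could be fitted. The numbers 3 and 6 name different animals in the CIA and healthy groups, and same-numbered mice correlated at -0.145 to 0.279 over 9 pairs. Without the 4 broad genes the level was 11952 CPM in spleen Erythrocytes, 4384 in spleen T cells, 3668 in joint T cells and 605 in lung Macrophages. The share of cells in spleen Erythrocytes was 95.02% at 3 or more UMIs, 92.7% after thinning and 95.02% without the broad genes. For spleen T cells it was 62.6%, 56.2% and 58.3%, and for lung Macrophages 7.53%, 9.60% and 7.09%. Muscle B cells had 2333 in place of 1846 CPM without S8, an alternative added after seeing the data. The cause of these changes was not tested. The 4 named calls kept their direction under all alternatives fitted, whereas folds that were not called could change sign (in joint Pcna was at -0.07 with and 0.06 without the filter, in muscle Smc4 at -0.19 and 0.01). With at least 20 cells per mouse, 7 of 11 label comparisons could be fitted. At this depth 38 of 46 members could not be tested label by label.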
